A study of Mus musculus with 6 samples.

Results

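The genes described here act where spermatogonia leave the stem cell state, differentiate and enter meiosis. They are 10 genes taken by their symbols, Stra8, Sohlh1, Sohlh2, Kit, Dmrtb1, Taf4b, Lin28a, Sall4, Uchl1 and Dazl, out of 18193 genes named on the array, and all of their 16 probe sets out of 45037 are shown. Whole-testis RNA of mice aged 12 weeks was hybridised to 6 Affymetrix arrays, and the genotype was jsd for 3 of them and SCARKO-jsd for the others. All of these mice have the jsd (juvenile spermatogonial depletion) mutation of Utp14b, with which spermatogonia persist in the adult but seldom develop further. In SCARKO-jsd mice a gene was also knocked out in the Sertoli cells, which nurse the germ line from within the tubule, so the comparison asks what that knockout changes in a testis with few germ cells. The labels and design text name no Cre driver. The design text gives 3 mice per genotype without tying a mouse to an array, so p-values cover the spread between these arrays, which may be technical in part. Values are log2 expression, in which 1 unit is a doubling, and differences are given as the SCARKO-jsd mean less the jsd mean.

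In the adult testis, spermatogonial stem cells give rise to progenitors that express RNA-binding and transcription factors such as Lin28a and Sall4. Retinoic acid then makes these cells differentiate, which brings the receptor Kit to their surface, and later switches on Stra8 as the cells prepare for meiosis. Sohlh1 and Sohlh2 promote the differentiating state, Dmrtb1 guards the passage from mitosis to meiosis, and Dazl is needed for germ cells to respond to these signals.

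Of these genes, 3 rose in SCARKO-jsd testes. They were Stra8 (1.98-fold), Dazl (1.77-fold) and the deubiquitinase gene Uchl1 (1.61-fold). Sohlh1, Lin28a, Sohlh2 and Sall4 were higher by 0.89, 0.86, 0.70 and 0.66 log2 units without passing the test, and Kit and Taf4b, with differences of -0.03 and -0.26, did not pass either. Dmrtb1 was dim on every array (4.85 to 5.44). In whole testes, fewer or more cells of a type and less or more RNA per cell cannot be told apart.

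The test was limma with Benjamini-Hochberg adjustment over 10916 genes, each by its brightest probe set and with the dimmest 40% left out, at an adjusted p under 0.05. It called 3 of the 10 genes higher and 0 lower, while 1.78% of all genes tested were called higher and 1.8% lower. Dmrtb1 was left out as dim, and Sohlh1, Sohlh2 and Lin28a, whose jsd means lay under the limit for dim genes (6.64), passed that limit only through their SCARKO-jsd arrays. With no gene left out, the same 3 of 10 were called by limma, against 1.22% of 18193 genes. The difference was then above 0 for 8 of the 10 and for 61.7% of all genes, with medians of 0.69 and 0.04, and 7 of the 10 had every SCARKO-jsd array above every jsd array, as did 13.4% of all genes. When each probe set was tested by itself with none left out, 0 of the 16 were called by limma, where 0.28% of 45037 probe sets were, although 10 of the 16 had an unadjusted p under 0.05, as did 10.3% of all probe sets. The 3 calls thus stand in the test over genes and not in the test over all probe sets.

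**Figure D1:**
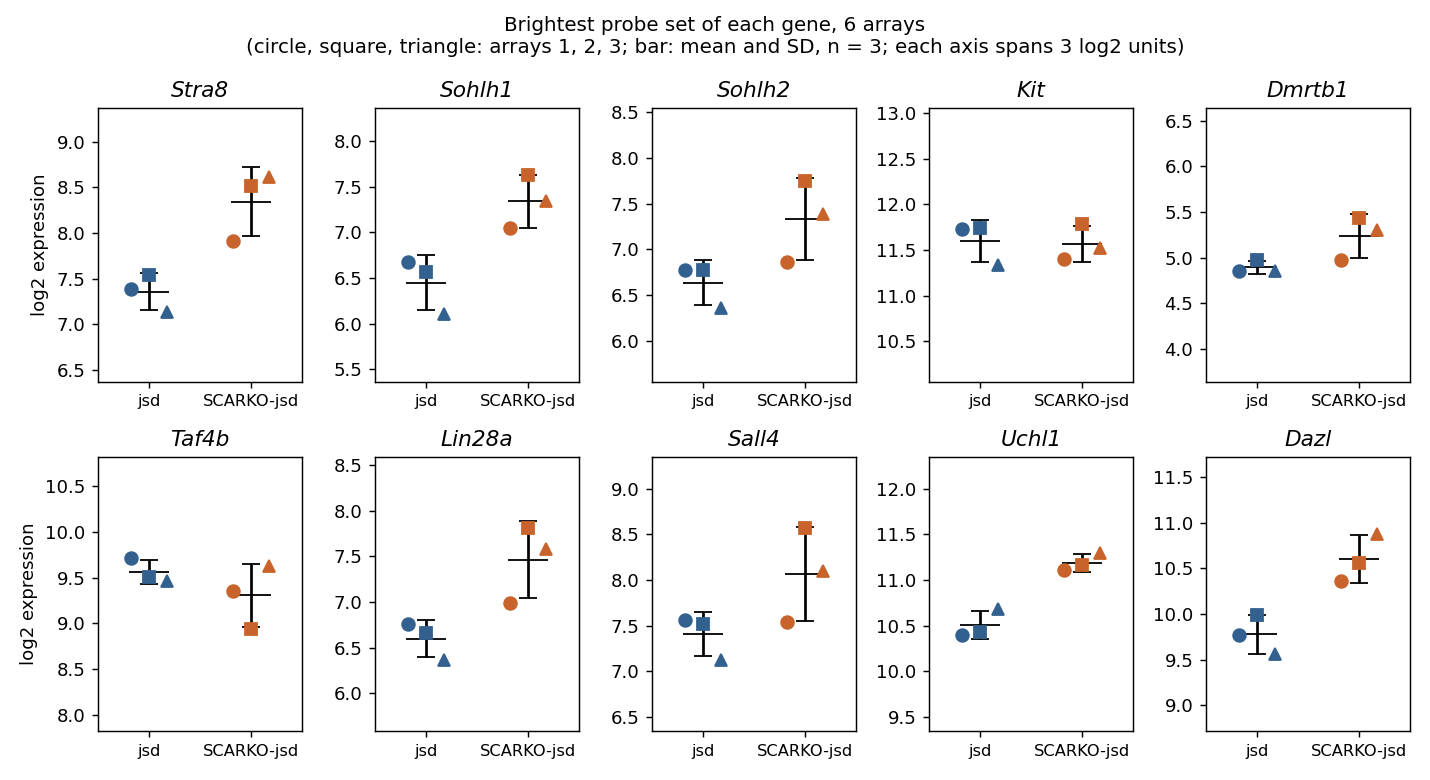
Log2 expression of the brightest probe set of each of the 10 genes in the 3 jsd arrays (blue) and the 3 SCARKO-jsd arrays (orange), with circle, square and triangle for arrays 1, 2 and 3 and a bar for the mean and SD. The groups are apart for Stra8, Sohlh1, Uchl1, Dazl and Lin28a and by less for Sohlh2 and Dmrtb1, and they overlap for Kit, Taf4b and Sall4.

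The arrays were not equal in quality. SCARKO-jsd 2 had a correlation of 0.952 to 0.973 with the other arrays over the tested genes, which are not independent replicates, while the highest between any other arrays was 0.994. The excess of the 3' over the 5' control probe set of beta-actin, a sign of RNA quality, was 1.66 log2 units on SCARKO-jsd 2 and 0.70 to 0.98 elsewhere. Some results are therefore also given without that array, and those given only with it may shift without it as well. Rhox5, an androgen-dependent gene of Sertoli cells, lay between 9.74 and 10.43 on the jsd arrays and between 5.44 and 6.11 on the SCARKO-jsd arrays. The defining Sertoli genes Sox9, Wt1 and Gata4 and the Leydig enzyme gene Cyp17a1 had means of 9.43, 10.60, 10.08 and 14.60 over the arrays, so defining markers of testis were present.

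Stra8 encodes the retinoic acid-induced factor that germ cells need to enter meiosis, and it had the largest difference of the 10 genes by their brightest probe sets. On its probe set 1420568_at the log2 expression was 7.39, 7.54 and 7.14 on jsd arrays 1, 2 and 3 and 7.91, 8.51 and 8.61 on SCARKO-jsd arrays 1, 2 and 3. Each SCARKO-jsd array lay above each jsd array, with SCARKO-jsd 1 the lowest of its group and 0.38 above the highest jsd array. The difference was 0.99 ± 0.19 (SE), with a 95% interval of 0.54 to 1.44 (limma, Benjamini-Hochberg adjusted p = 0.0379). Without SCARKO-jsd 2 it was 0.91 and the adjusted p by limma was 0.0354.

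The promoter windows printed here are those of the 3 genes that rose, to show what the sequence before their start holds, and that of Sohlh1. Sohlh1 did not pass the test, and its window is shown because it holds both motifs marked. Each is the 250 bases before a RefSeq transcript start (GRCm38.p6), read 5' to 3' along the gene, with capitals for AGGTCA, the half-site bound by retinoic acid receptors, and for CACGTG, an E-box of the kind bound by helix-loop-helix factors, searched on both strands.
Stra8 (chr6:34920698-34920947, plus strand): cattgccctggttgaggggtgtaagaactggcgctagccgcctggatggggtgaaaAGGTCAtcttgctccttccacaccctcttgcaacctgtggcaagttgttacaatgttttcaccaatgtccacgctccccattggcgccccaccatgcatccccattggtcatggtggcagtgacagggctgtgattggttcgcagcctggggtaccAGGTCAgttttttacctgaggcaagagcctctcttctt
Sohlh1 (chr2:25847249-25847498, minus strand): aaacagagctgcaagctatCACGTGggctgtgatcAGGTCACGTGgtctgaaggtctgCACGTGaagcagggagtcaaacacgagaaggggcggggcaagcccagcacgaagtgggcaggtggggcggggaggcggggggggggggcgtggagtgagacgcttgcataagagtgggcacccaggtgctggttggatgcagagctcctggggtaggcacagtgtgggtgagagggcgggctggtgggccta
Dazl (chr17:50293621-50293870, minus strand): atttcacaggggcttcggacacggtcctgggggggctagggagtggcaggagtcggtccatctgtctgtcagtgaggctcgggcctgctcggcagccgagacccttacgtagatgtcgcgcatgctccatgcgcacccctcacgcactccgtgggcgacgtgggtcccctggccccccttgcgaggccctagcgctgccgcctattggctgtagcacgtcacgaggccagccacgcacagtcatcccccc
Uchl1 (chr5:66675871-66676120, plus strand): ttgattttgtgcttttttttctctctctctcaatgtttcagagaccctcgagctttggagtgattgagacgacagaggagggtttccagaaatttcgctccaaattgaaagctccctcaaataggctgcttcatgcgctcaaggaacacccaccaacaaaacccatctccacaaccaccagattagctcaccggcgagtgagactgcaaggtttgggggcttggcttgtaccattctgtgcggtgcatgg
In the Stra8 window AGGTCA occurs at 2 places, beginning 194 and 38 bases before the start, and this start lies inside the RefSeq gene record, not at its outer end. The Sohlh1 window holds CACGTG at 3 places, beginning 231, 211 and 192 bases before the start, and 1 AGGTCA that overlaps the second of them. Neither motif is in the Dazl and Uchl1 windows. Of all 32851 promoter windows of this length, 14% hold AGGTCA and 6.02% hold CACGTG. These matches are letters in a sequence and say nothing of binding. RefSeq windows were found for 8 of the 10 genes, and those of Sohlh2, Lin28a, Kit and Dmrtb1, like those of Dazl and Uchl1, hold neither AGGTCA nor CACGTG. The general E-box CANNTG, with N for any base, was also searched but is not marked, and 66.2% of all windows hold it. It occurs at 5 places in the Sohlh1 window, 1 in those of Dazl and Sohlh2, 3 and 2 in those of Dmrtb1, and nowhere in the others.

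Sohlh1 and Sohlh2 encode partner helix-loop-helix factors of the germ line, without which spermatogonia do not differentiate. Sohlh1 (1460015_at) read 6.68, 6.57 and 6.11 on jsd arrays 1, 2 and 3 and 7.05, 7.63 and 7.35 on SCARKO-jsd arrays 1, 2 and 3, so the groups did not overlap and the gap between them was 0.37. Its difference of 0.89 ± 0.19 (SE) just missed the threshold by limma (Benjamini-Hochberg adjusted p = 0.0518). It passed by limma without SCARKO-jsd 2 (0.75, adjusted p = 0.0424) and without SCARKO-jsd 1 (1.04, adjusted p = 0.0443). Without jsd 1, jsd 2, jsd 3 or SCARKO-jsd 3 it did not pass (limma, adjusted p = 0.112, 0.137, 0.114 and 0.165). The jsd mean of Sohlh1 (6.45) lay under the limit for dim genes (6.64), which it passed only through its SCARKO-jsd arrays. Sohlh2 (1429817_at) stood at 6.78, 6.78 and 6.36 on the jsd arrays and 6.87, 7.75 and 7.38 on the SCARKO-jsd arrays in the same order. The lowest SCARKO-jsd array of Sohlh2 was only 0.09 above the highest jsd array. Its difference was 0.70 ± 0.23 (SE; limma, Benjamini-Hochberg adjusted p = 0.160) with all arrays and 0.49 without SCARKO-jsd 2, the highest array of the gene.

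Kit, the receptor that differentiating spermatogonia carry, was not higher in SCARKO-jsd testes on either probe set. Its brighter probe set 1452514_a_at gave 11.73, 11.74 and 11.33 on jsd arrays 1, 2 and 3 and 11.40, 11.79 and 11.52 on SCARKO-jsd arrays 1, 2 and 3, with full overlap. The difference of -0.03 ± 0.15 (SE) had a 95% interval from -0.37 to 0.31, whose upper end is below the differences of Stra8, Uchl1 and Dazl. Whether Kit differed from those genes was not tested. The other probe set, 1415900_a_at, gave 9.41, 9.96 and 9.04 on the jsd arrays and 9.10, 8.80 and 8.98 on the SCARKO-jsd arrays. There all SCARKO-jsd arrays were below jsd 1 and jsd 2 but not all below jsd 3, and the difference was -0.51 ± 0.23 (SE; limma, Benjamini-Hochberg adjusted p = 0.532), or -0.26 without jsd 2, the highest array. Kit is also expressed by Leydig cells and mast cells. Of 5 measured Leydig genes 0 were called by limma, 0 had an unadjusted p under 0.05 and their mean level ran from 13.16 to 13.39 on jsd and from 13.22 to 13.46 on SCARKO-jsd arrays, while all 6 mast cell genes were dim, with means of 4.65 to 4.69 and 4.57 to 4.74. Kitl, the ligand of Kit that Sertoli cells make, had a difference of 0.13 ± 0.12 (SE; limma, Benjamini-Hochberg adjusted p = 0.630), which turned to -0.04 when its probe sets were averaged and to -0.03 with array weights.

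Dmrtb1 encodes a DM-domain factor, also called DMRT6, that coordinates the end of spermatogonial divisions with meiotic entry. On 1427252_at it read 4.85, 4.97 and 4.86 on jsd arrays 1, 2 and 3 and 4.98, 5.44 and 5.30 on SCARKO-jsd arrays 1, 2 and 3. The lowest SCARKO-jsd value was above the highest jsd value by 0.006, all of them far below the limit for dim genes (6.64). Its difference of 0.34 ± 0.13 (SE) did not pass when every probe set was tested (limma, Benjamini-Hochberg adjusted p = 0.437).

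Taf4b, a subunit of the TFIID complex that is enriched in gonads and needed to keep the germ line in adult males, was lower on the mean of each of its 3 probe sets. The brightest, 1435303_at, gave 9.71, 9.51 and 9.46 on jsd arrays 1, 2 and 3 and 9.36, 8.93 and 9.62 on SCARKO-jsd arrays 1, 2 and 3. The groups overlapped, and the difference was -0.26 ± 0.17 (SE; limma, Benjamini-Hochberg adjusted p = 0.494), and it ran from -0.07 without SCARKO-jsd 2 to -0.42 without SCARKO-jsd 3. On 1435302_at the values were 8.82, 8.83 and 8.28 on the jsd arrays and 8.26, 8.99 and 8.19 on the SCARKO-jsd arrays, a difference of -0.17 ± 0.26 (SE), which was -0.42 without SCARKO-jsd 2 and -0.02 without SCARKO-jsd 3. SCARKO-jsd 2 was thus the lowest array on one probe set of Taf4b and the highest on the other. On the other probe set, 1431193_at, which was dim, the gene had every SCARKO-jsd array below every jsd array, with means of 5.16 and 5.69 and a difference of -0.53 ± 0.18 (SE; limma, Benjamini-Hochberg adjusted p = 0.374). Its close relative Taf4, the general form of the subunit, had a difference of 0.02 ± 0.13 (SE; limma, adjusted p = 0.948), which turned to -0.10 without SCARKO-jsd 2, to -0.05 without jsd 3 and to -0.09 with array weights.

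Lin28a, an RNA-binding protein that blocks maturation of let-7 microRNAs and marks spermatogonial progenitors, was higher on its bright probe set. The values of 1437752_at were 6.76, 6.67 and 6.37 on jsd arrays 1, 2 and 3 and 6.99, 7.81 and 7.58 on SCARKO-jsd arrays 1, 2 and 3, without overlap. The difference was 0.86 ± 0.21 (SE), outside the threshold by limma (Benjamini-Hochberg adjusted p = 0.0742), and 0.69 without SCARKO-jsd 2 (adjusted p = 0.0636). The second probe set, 1421749_at, was dim, between 3.98 and 4.51 over the 6 arrays, and its groups overlapped.

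Sall4, a zinc finger transcription factor of spermatogonial progenitors, varied most among the SCARKO-jsd arrays. On 1424152_at it stood at 7.56, 7.52 and 7.13 on jsd arrays 1, 2 and 3 and at 7.54, 8.56 and 8.10 on SCARKO-jsd arrays 1, 2 and 3. SCARKO-jsd 1 was within the range of the jsd arrays, and SCARKO-jsd 2 was the highest. The difference of 0.66 ± 0.25 (SE; limma, Benjamini-Hochberg adjusted p = 0.216) was 0.41 without SCARKO-jsd 2. The dim probe set 1424153_s_at ran from 5.26 to 5.44 on jsd and from 5.52 to 5.79 on SCARKO-jsd arrays, a difference of 0.25 ± 0.11 (SE).

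Uchl1, a deubiquitinase known as PGP9.5 and abundant in spermatogonia and neurons, had the smallest spread of the genes that rose. Its probe set 1448260_at gave 10.40, 10.43 and 10.68 on jsd arrays 1, 2 and 3 and 11.10, 11.16 and 11.29 on SCARKO-jsd arrays 1, 2 and 3. The lowest SCARKO-jsd array was 0.43 above the highest jsd array, and here SCARKO-jsd 2 lay between the other SCARKO-jsd arrays. The highest jsd array was jsd 3, which was the lowest jsd array for Stra8 and Dazl. The difference was 0.68 ± 0.11 (SE), with a 95% interval of 0.43 to 0.93 (limma, Benjamini-Hochberg adjusted p = 0.0172). Of 6 genes listed as neuronal, Tubb3 was the only one bright enough to test (-0.04 ± 0.18 SE). The others had means of 3.38 to 6.33 over the 6 arrays. Whether Tubb3 reads neurons in these testes, and which cells gave the Uchl1 signal, was not tested.

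Dazl, an RNA-binding protein that controls translation in germ cells, was measured by a pair of bright probe sets that gave the same picture. On 1449502_at it read 9.78, 9.99 and 9.56 on jsd arrays 1, 2 and 3 and 10.36, 10.56 and 10.88 on SCARKO-jsd arrays 1, 2 and 3, a difference of 0.82 ± 0.16 (SE; limma, Benjamini-Hochberg adjusted p = 0.0376). On 1419542_at the values were 9.34, 9.46 and 8.87 on the jsd arrays and 9.84, 10.60 and 10.21 on the SCARKO-jsd arrays, a difference of 0.996 ± 0.23 (SE). Neither probe set had overlapping groups, with gaps of 0.37 and 0.39. The first was 0.84 and the second 0.80 without SCARKO-jsd 2.

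**Figure D2:**
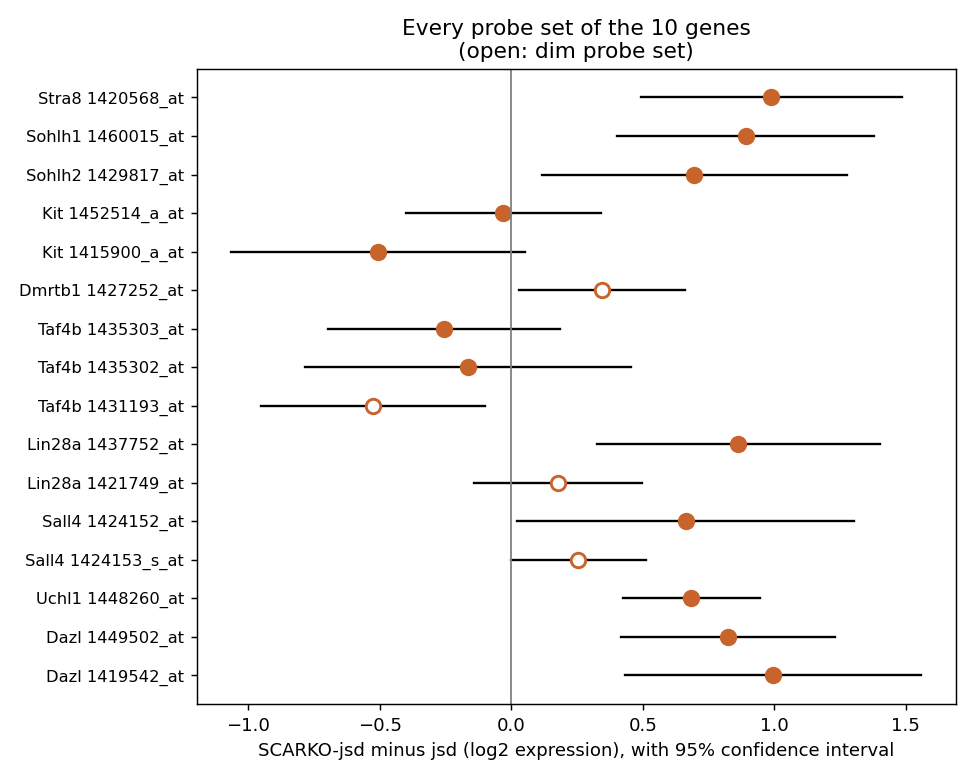
Difference in log2 expression, SCARKO-jsd minus jsd, for every probe set of the 10 genes, with its 95% confidence interval from limma over all probe sets and open circles for dim probe sets. Dazl is 0.82 and 0.996 on its probe sets, Kit -0.03 and -0.51, and all 3 Taf4b probe sets are left of 0.

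Across the 16 probe sets, 11 were higher and 5 lower on average in SCARKO-jsd testes, where 53.2% of all probe sets were higher, and the 5 were those of Kit and Taf4b. Of the 16, 9 had all SCARKO-jsd arrays above all jsd arrays, as did 9.99% of all probe sets, and 1, of Taf4b, was apart in the other direction, as were 6.93% of all probe sets. The arrays within a group were not alike. jsd 3 was the lowest jsd array for 12 of the 16 probe sets, SCARKO-jsd 1 the lowest SCARKO-jsd array for 11, and SCARKO-jsd 2 the highest for 8. The mean over the 10 genes was 8.16, 8.17 and 7.90 on jsd arrays 1, 2 and 3 and 8.36, 8.81 and 8.76 on SCARKO-jsd arrays 1, 2 and 3, so SCARKO-jsd 1 was nearest to the jsd arrays.

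The calls rested on most of the arrays. Leaving out jsd 1, jsd 2 or SCARKO-jsd 3 left 0 of the 10 genes called by limma. Leaving out jsd 3 left Uchl1, against 1.08% of all genes called higher, and leaving out SCARKO-jsd 2 left Stra8, Dazl and Uchl1 with Sohlh1 added, against 2.75%. Without SCARKO-jsd 1 there were 6, the same 3 with Sohlh1, Sohlh2 and Lin28a, against 1.98%. Sohlh1, Sohlh2 and Lin28a passed the limit for dim genes only through their SCARKO-jsd arrays, and no leave-out fit kept the dim genes. The number of all genes called moved as well, from 390 to 78 without jsd 1, 119 without jsd 2, 239 without jsd 3, 344 without SCARKO-jsd 1, 768 without SCARKO-jsd 2 and 141 without SCARKO-jsd 3. The differences themselves stayed between 0.86 and 1.20 for Stra8, between 0.68 and 0.94 for Dazl and between 0.63 and 0.77 for Uchl1 with any 1 array left out.

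**Figure D3:**
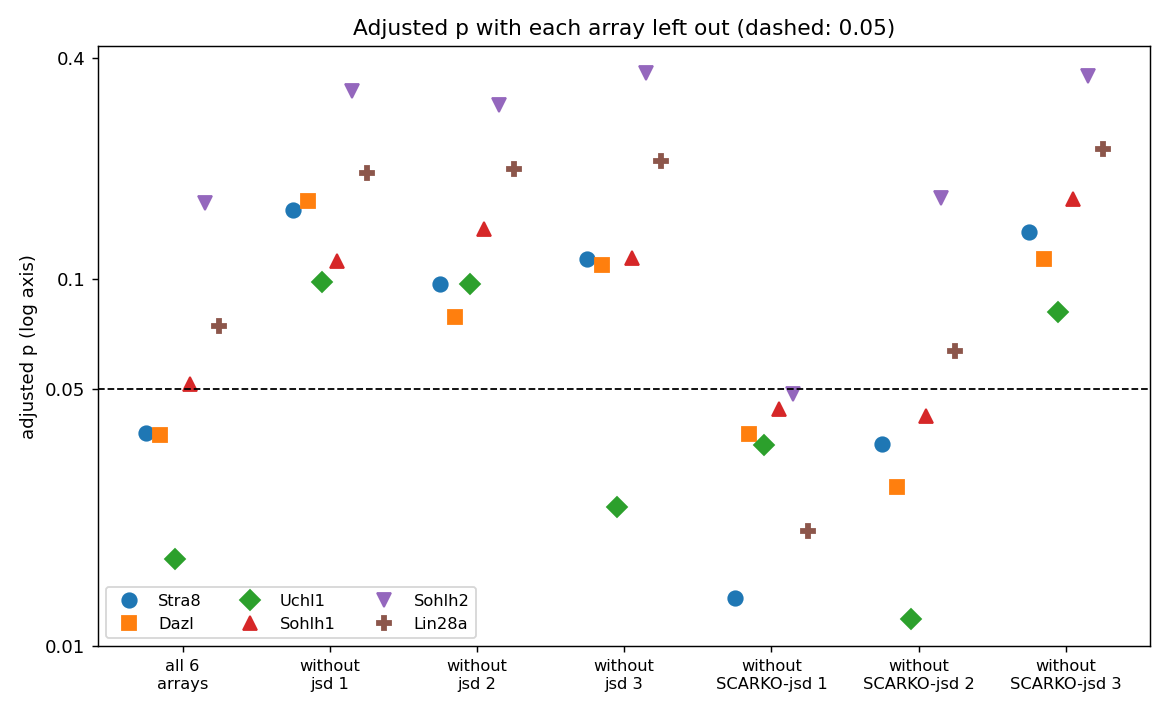
Limma Benjamini-Hochberg adjusted p (log axis) of 6 of the genes with all 6 arrays and with each array left out in turn, with a dashed line at 0.05. Stra8, Dazl and Uchl1 lie under the line with all arrays and above it without jsd 1, jsd 2 or SCARKO-jsd 3.

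Other genes of spermatogonial differentiation and meiotic entry were taken from a list of 30, of which 28 were measured and 15 were bright enough to test. Of these, 3 rose, 0 fell and 12 did not pass by limma, where 1.78% of all genes tested were called higher and 1.8% lower. The median difference was 0.21 beside 0.04 for all genes tested. Without SCARKO-jsd 2 there were 5 that rose, against 2.75% of all genes called higher, and without jsd 1 there was 1. Sycp3, of the axis of meiotic chromosomes, rose by 1.31 ± 0.14 (SE; limma, Benjamini-Hochberg adjusted p = 0.0039). It read 6.61, 7.03 and 6.90 on jsd arrays 1, 2 and 3 and 8.02, 8.34 and 8.13 on SCARKO-jsd arrays 1, 2 and 3. Mael, which silences transposons in the male germ line, rose by 1.13 ± 0.18 and Meig1, whose product is needed in spermatids, by 0.84 ± 0.14 (SE; adjusted p = 0.0167 and 0.0200). Rara, the retinoic acid receptor alpha, was lower by 0.37 (adjusted p = 0.109), and Ythdc2, a helicase needed for meiotic entry, was 0.21 higher (adjusted p = 0.291). Prdm9, Dmc1, Spo11, Hormad1, Meioc and Msh4, which work at or soon after meiotic entry, were all dim, with means of 3.77 to 5.61. With no gene left out as dim, 5 of the list rose, against 1.22% of 18193 genes. Neurog3, a gene of early progenitors, and Hormad1, of the meiotic chromosome axis, were added at 0.84 ± 0.16 and 1.06 ± 0.21 (SE; limma, Benjamini-Hochberg adjusted p = 0.0361 and 0.0445). Dmc1, the meiotic recombinase gene, was 0.69 higher without passing (adjusted p = 0.104). Every SCARKO-jsd array lay above every jsd array for Dmc1, Hormad1, Meioc and Msh4, as for 13.4% of all genes. Prdm9 was 0.30 lower and Spo11 0.09 higher, both with overlapping groups.

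Some genes found across the germ line rose as well. Of 14 listed, 12 were measured and 9 tested, 2 rose, 0 fell and 7 did not pass by limma. Of all genes tested, 1.78% were called higher and 1.8% lower. The median difference was 0.86 beside 0.04 for all genes tested. Without SCARKO-jsd 2 there were 4 that rose, against 2.75% of all genes called higher. Piwil2 rose by 1.39 ± 0.23 and Mov10l1 by 0.86 ± 0.11 (SE; limma, Benjamini-Hochberg adjusted p = 0.0209 and 0.00826), both of the piRNA pathway. The germ cell helicase gene Ddx4 was 1.06 ± 0.23 (SE) higher, just outside the threshold (adjusted p = 0.0555), and Stk31 was 1.26 higher (adjusted p = 0.0525). Tdrd1 was at -0.10, and Stk31 and Tex101 passed the limit for dim genes only through their SCARKO-jsd arrays. The mean level of the measured germ line genes ran from 6.41 to 6.92 on the jsd arrays and from 7.19 to 7.76 on the SCARKO-jsd arrays. The part of the germ line genes in the rise of Stra8, Dazl and Uchl1 was not tested.

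Genes of undifferentiated spermatogonia went both ways. Of 17 listed, 16 were measured and 10 tested, 1 rose, 2 fell and 7 did not pass by limma. Of all genes tested, 1.78% were called higher and 1.8% lower. The median difference was -0.05 beside 0.04 for all genes tested. Without SCARKO-jsd 2 there were 2 that rose, against 2.75% of all genes called higher, and 4 that fell. The helix-loop-helix inhibitor gene Id4 fell by 1.17 ± 0.18 (SE), the adhesion gene Epcam fell by 0.53 ± 0.10, and Cd9, a tetraspanin, rose by 0.78 ± 0.12 (limma, Benjamini-Hochberg adjusted p = 0.0173, 0.0361 and 0.0167). Which cells of the whole testis gave the signal of Id4, Epcam and Cd9 was not tested. On average 4 of the 10 tested genes were higher and 6 lower. The mean level of the measured list was 7.39 to 7.47 on jsd arrays and 7.34 to 7.58 on SCARKO-jsd arrays, with overlap. Among 18 genes of spermatocytes and spermatids, 5 were bright enough to test, and 0 were called and 0 had an unadjusted p under 0.05 by limma. The spermatid genes Prm2, Tnp1, Tnp2 and Acrv1 were dim, with means of 4.10 to 5.65. From the same list, Prm1 and Odf2 were bright enough to test, with means of 7.35 and 9.63 and differences of 0.08 and -0.27. Whether the Odf2 signal came from spermatids or from other cells was not tested.

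The somatic markers called by limma were Wt1 and Kdr, both lower, where 1.8% of all genes tested were called lower. Among 11 tested Sertoli genes Wt1 fell by 0.48 ± 0.10 (SE; limma, Benjamini-Hochberg adjusted p = 0.0394), 10 did not pass and the median difference was -0.10, and the mean level of the list was 10.75 to 10.92 on jsd and 10.75 to 11.02 on SCARKO-jsd arrays. Amh and Inha, hormone genes of Sertoli cells, were each 0.33 higher (adjusted p = 0.134 and 0.0792). Of 6 peritubular myoid and 7 macrophage genes 0 were called and 0 had an unadjusted p under 0.05 by limma. Their list means overlapped between the groups, at 9.35 to 9.54 against 9.40 to 9.47 and at 9.58 to 9.74 against 9.59 to 9.74. Among 5 tested endothelial genes Kdr fell by 0.79 ± 0.16 (SE; limma, adjusted p = 0.0430) and 4 did not pass. Those 4 were higher on average, Vwf by 0.53 with groups apart (adjusted p = 0.142), Tek by 0.26, Cdh5 by 0.18 and Eng by 0.16, and the median of the list was 0.18.

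**Figure D4:**
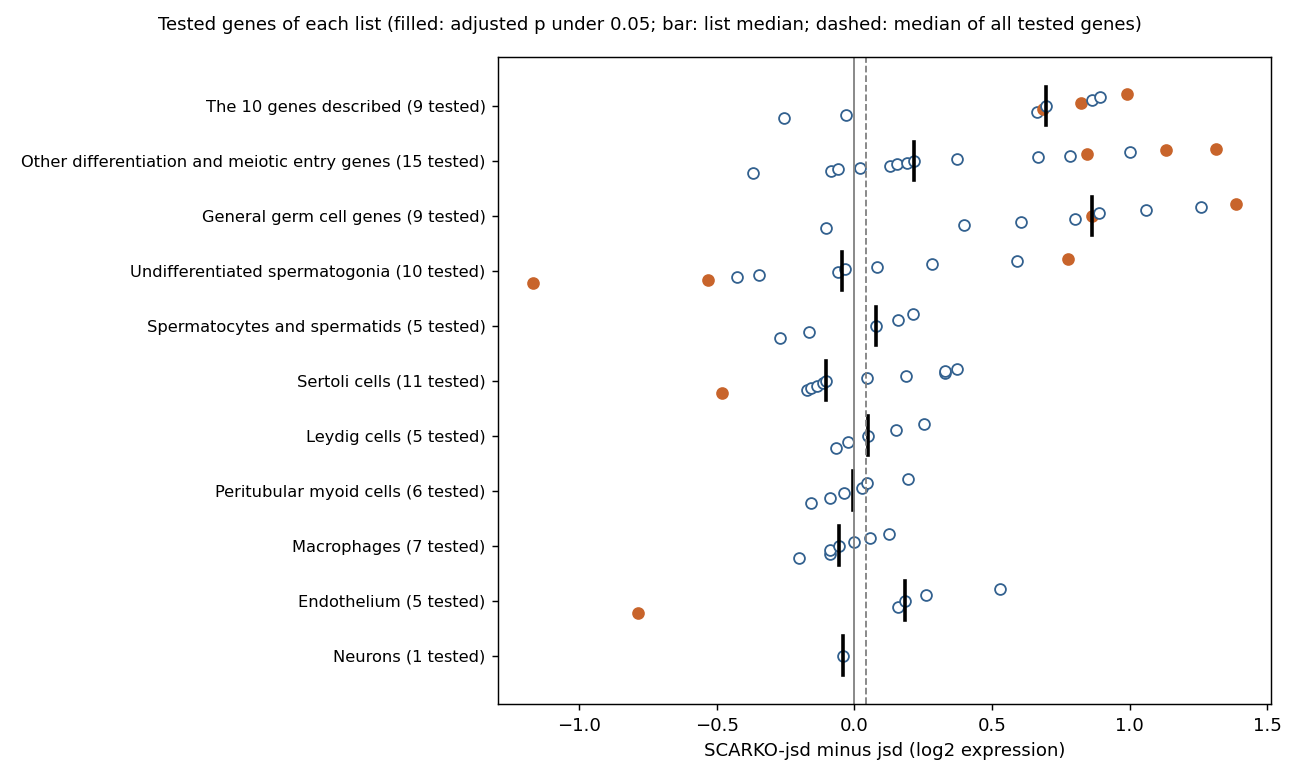
Difference in log2 expression, SCARKO-jsd minus jsd, of each tested gene in the lists, with filled points for a limma Benjamini-Hochberg adjusted p under 0.05, a bar at each list's median and a dashed line at the median of all tested genes (0.04). The medians are 0.70 for the 9 tested genes described here, 0.86 for germ line genes and 0.21 for the other differentiation and meiotic entry genes. Those of the Sertoli, Leydig, myoid and macrophage lists are between -0.10 and 0.05, with 0.18 for the endothelial list. Sohlh1, Sohlh2 and Lin28a, and Stk31 and Tex101 of the germ line list, passed the limit for dim genes only through their SCARKO-jsd arrays. With no gene left out as dim, the median of the 10 genes described was 0.69.

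The genes whose profile over the 6 arrays was nearest to that of Stra8 were Slc37a2, Tcfl5, Uba1y, 8030474K03Rik and Cdca5, with root mean square differences of 0.119 to 0.150 log2 units after the jsd mean of each gene was taken off. Nearest to the median profile of the 9 tested genes were Rpp25, Ndc80, 8030474K03Rik, Pm20d1 and Nek2, at 0.082 to 0.108. With 6 arrays and 10916 genes, close profiles are found for many genes, and this is a description only.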

How the data were processed

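Total RNA was extracted with RNeasy columns and biotin-labelled cRNA was put on Affymetrix arrays, per the protocols in the labels. The authors deposited log2 expression per probe set, and per the submitters' processing notes they used affy and RMA, of which no version is given in the sources used here. This method sets the probe signals of all arrays to a shared distribution before they are joined into probe sets, so a shift of most transcripts one way cannot be seen. The deposited values still differed, with a median of 6.26 on SCARKO-jsd 2 and 6.40 to 6.41 on the other arrays. The 6 arrays held 45101 probe sets, 64 of them controls, and GEO's platform annotation gave 1 symbol for 34958, several for 932 and none for 9211. A RefSeq table (GRCm38.p6) held the gene ID of 34754 of them and updated 0 symbols.

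The brightest probe set of each of 18193 genes was kept, the lowest 40% by mean over all arrays (up to 6.64) were left out, and genotype was tested with limma 3.58.1 (lmFit, eBayes, two-sided, Benjamini-Hochberg) in R 4.3.3. A second fit took all 45037 probe sets that are not controls. How many true changes of a given size the fit would find on arrays of such unequal quality was not tested. The named genes are the 10 members with every probe set, up to 3 tested genes with the smallest p in each list, and the nearest profiles. Genes named beyond that, such as Rhox5, Kitl, Taf4, Rara, Ythdc2, Amh, Inha and the dim ones, were chosen after their values were seen. The members and lists were chosen with earlier results of these data known. The gene removed by the knockout is not reported here. Figures were drawn with matplotlib 3.10.9. Precision is limited by having 3 arrays per group, and 0 arrays held identical values.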

Additional observations from a re-analysis of the deposited data

How the results depend on the processing

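The differences of Stra8, Dazl, Uchl1, Sohlh1, Sohlh2, Lin28a and Sall4 stayed above 0, and that of Taf4b below 0, under every setting in which they were tested. The filters on dim genes, averaging the probe sets, median centring, quantile normalization of the deposited values and eBayes with trend and robust moved the number of the 10 genes called higher (3) by at most 1.5 times. It was 6 with array weights, 0 at an adjusted p threshold of 0.01, 5 at 0.1 and 0 to 6 with 1 array left out. Of the 16 probe sets 0 were called, against 1 with trend and robust (Uchl1), 5 with array weights, 1 at a threshold of 0.1 and 0 to 1 with 1 array left out. All probe sets called went from 126 to 64 with median centring, 215 with trend and robust, 1269 with array weights, 15 and 372 at thresholds of 0.01 and 0.1 and 0 to 627 with 1 array left out.

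All genes called went from 390 to 1529 with array weights, 111 and 728 at thresholds of 0.01 and 0.1 and 78 to 768 with 1 array left out. Among the other differentiation and meiotic entry genes, 3 rose, against 5 with no filter on dim genes, 6 with array weights (and 1 lower), 1 and 5 at thresholds of 0.01 and 0.1 and 1 to 5 with 1 array left out. Without SCARKO-jsd 2, an alternative added after the data were seen for these lists, 4 germ line genes rose against 2, and among undifferentiated spermatogonia 2 rose against 1 and 4 fell against 2. Array weights gave SCARKO-jsd 2 a weight of 0.241 and SCARKO-jsd 3 one of 2.42, by limma's gene-by-gene method, since the default estimate did not converge.

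Signs that turned belong to small differences. Kit (-0.03) was 0.0137 with median centring and -0.163 to 0.0528 with 1 array left out, Kitl (0.13) was -0.0362 when probe sets were averaged and -0.03 with array weights, and Taf4 (0.02) was -0.085 with array weights and -0.0977 to 0.0943 with 1 array left out. Tdrd1 (-0.10) was -0.256 to 0.122 with 1 array left out. Zbtb16 (-0.06) was 0.0474 when probe sets were averaged, 0.30 with array weights and -0.274 to 0.247 with 1 array left out. The causes were not tested.

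Arrays that share a number were not paired, since the labels give them only a number and their deviations correlated at -0.21, 0.23 and 0.24. With a replicate block, 397 genes and 4 of the 10 were called, Sohlh1 being added (adjusted p = 0.0391), 4 of the other differentiation genes, and 0 probe sets against 126. Dim values, those of Dmrtb1 above all, limit what can be said of size.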
